A study of Mus musculus with 2 samples.

Results

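The contractile genes *Acta2*, *Tagln*, *Myh11*, *Myl9*, *Mylk*, *Cnn1*, *Rgs5*, *Tpm1* and *Tpm2* were followed cell by cell in skin of the back and in the preputial gland (PG), the sebaceous-like gland of male rodents. These 9 genes, of 32285 listed in both matrices, were taken by their symbols. In the GENCODE M21 annotation of GRCm38, *Acta2* lies at chr19:34241090-34255590, *Tagln* at chr9:45929619-45936058 and *Myh11* at chr16:14194535-14291372, *Mylk* also on chromosome 16, *Cnn1* and *Tpm1* on chromosome 9, and *Rgs5*, *Myl9* and *Tpm2* on chromosomes 1, 2 and 4. The list was put together with the levels of these genes in the clusters of these libraries known, so the levels below are descriptions. Their detection was set against that of *Krt5* and *Krt14*, the keratin pair of basal epithelial cells, to see which muscle-type transcripts occurred in stromal cells, which in epithelial cells, and which in barcodes that carried both.

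The study compared 2 tissues of wild type C57BL/6 mice, all male and 52 weeks old. Biopsies of back skin formed one group and whole PGs the other, and the labels name no treatment or genetic change for either. For each tissue the samples of 3 mice were pooled, digested with enzymes and measured as 1 library by droplet-based 3′ RNA sequencing. Each tissue is therefore 1 sample, no difference could be tested, and library and tissue cannot be told apart. Digestion also decides which cells reach the droplets.

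Smooth muscle cells contract when myosin light chain kinase, the product of *Mylk*, phosphorylates the regulatory light chain of myosin, encoded by *Myl9*, and the smooth muscle myosin heavy chain of *Myh11* then pulls on filaments of the actin of *Acta2*. Transgelin (*Tagln*), calponin (*Cnn1*) and the tropomyosins (*Tpm1*, *Tpm2*) bind these actin filaments, and *Rgs5*, a regulator of G protein signalling, is a known marker of pericytes, the contractile cells around capillaries. Myoepithelial cells, known from sweat, mammary and salivary glands, are epithelial cells that carry *Krt5* and *Krt14* together with *Acta2* and *Myh11*, while skeletal muscle uses its own actin and myosin genes but shares *Tpm1* and *Tpm2*.

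Barcodes with at least 500 genes, at least 1000 unique molecular identifiers (UMIs, each counting 1 captured transcript) and at most 10% mitochondrial UMIs were taken as cells. Skin held 8899 such cells with 27407186 UMIs (median 2386 UMIs per cell) and PG 4699 cells with 15270076 UMIs (median 2729), which gives 13598 cells, and no barcode occurred in both libraries. Levels are given as counts per 1e6 UMIs of a group of cells (CPM). All 95% intervals (CI) hold the error of counting and leave out how mice vary, and CPM of different genes are not compared with each other, since they were not scaled by length.

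Genes of the contractile apparatus are known targets of serum response factor, which binds the CArG box, a sequence of CC, 6 bases of A or T, and GG. Of the 9 genes, 7 had an entry in the RefSeq promoter table (GRCm38.p6, the build that the submitters name as mm10); *Tagln* and *Myh11* had none. The 250 bases before the RefSeq start were read on either strand (the box reads the same on both). There *Myl9* held 1 full box and *Myl9* and *Acta2* held 3 boxes with 1 other base in the core, whereas *Mylk*, *Cnn1*, *Rgs5*, *Tpm1* and *Tpm2* held neither form. For *Mylk* this stretch (chr16:34784700-34784949) lies inside the GENCODE gene (chr16:34745210-35002420), so the bases before the first start of that gene were not searched. Those of *Acta2*, *Myl9*, *Cnn1*, *Tpm1* and *Tpm2* overlap the GENCODE gene in part. Among all 32851 promoters of that length, 1.47% held the full box and 8.59% a box with at most 1 other core base. The sites are shown because *Acta2* and *Myl9* are the members of the 7 that hold one. They are given with 10 bases on either side, the box in capitals, 5′ to 3′ on the strand of the gene.
*Myl9*, chr2:156775293-156775322, plus strand, box starting at base -161: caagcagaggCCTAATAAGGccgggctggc
*Myl9*, chr2:156775355-156775384, plus strand, box starting at base -99: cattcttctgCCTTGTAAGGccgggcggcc
*Acta2*, chr19:34255438-34255467, minus strand, box starting at base -84: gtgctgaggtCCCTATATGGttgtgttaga
*Acta2*, chr19:34255388-34255417, minus strand, box starting at base -34: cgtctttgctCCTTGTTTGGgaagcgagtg
The *Myl9* sites lie outside the exons of the GENCODE M21 annotation, and the *Acta2* sites lie within the first exon of a longer annotated transcript. A match is a description of the letters and no evidence of binding.

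Over all cells, the transcripts of smooth muscle actin and its partners were rare in both tissues and lay in few cells. *Acta2* had 1078 UMIs in skin (39.3 CPM, 95% CI 37.0 to 41.8) in 125 cells, and 912 UMIs in PG (59.7 CPM, 95% CI 55.9 to 63.7) in 307 cells. *Tagln* had 1055 UMIs in 144 skin cells (38.5 CPM) and 1804 UMIs in 463 PG cells (118 CPM). Both genes thus occurred in more cells of PG than of skin, although PG had fewer cells. *Myh11*, which is the most restricted of the myosin genes here, had 253 UMIs in 30 skin cells (9.23 CPM) and 162 UMIs in 20 PG cells (10.6 CPM). *Mylk* had 319 UMIs in 143 skin cells (11.6 CPM) and 171 UMIs in 91 PG cells (11.2 CPM). The levels of *Myh11* and *Mylk* therefore lay close together in the tissues while those of *Tagln* did not. The remaining members ran from *Cnn1*, with 42 UMIs in 20 skin cells and 26 UMIs in 8 PG cells, to the tropomyosins, with 10235 *Tpm1* and 5316 *Tpm2* UMIs in skin and 3313 and 5214 in PG.

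Set side by side over all cells, 3 of the 9 members were at least 2-fold higher in PG, against 14.2% of all 14710 genes with at least 20 UMIs in either library. The log2 difference of PG over skin was 1.62 for *Tagln* (95% CI 1.51 to 1.73), 1.44 for *Rgs5* (95% CI 1.19 to 1.69) and 1.03 for *Myl9* (95% CI 0.82 to 1.25). It was 0.82 for *Tpm2* and 0.60 for *Acta2* (95% CI 0.47 to 0.73), and -0.78 for *Tpm1*. For *Myh11* it was 0.20 (95% CI -0.09 to 0.49), for *Cnn1* 0.15 (95% CI -0.61 to 0.89) and for *Mylk* -0.06 (95% CI -0.33 to 0.22), so that the counting intervals of these 3 genes include 0. The median was 0.60 over the members and -0.12 over all genes. *Krt5* and *Krt14* were lower in PG, by log2 differences of -1.39 and -0.91.

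**Figure D1:**
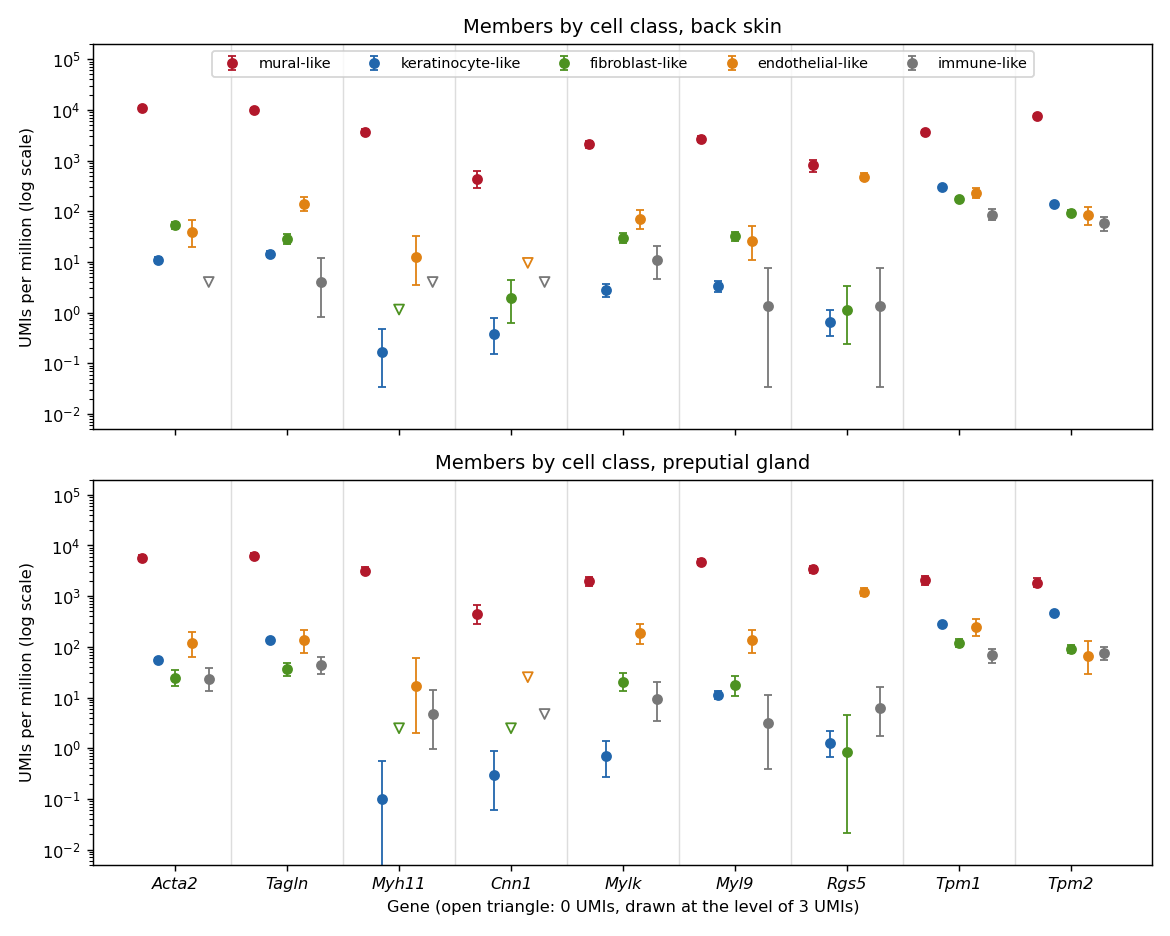
Level of each member (x axis) in CPM on a log scale (y axis) in cells of 5 classes, back skin above and PG below. Points are sums over the cells of a class, bars are exact 95% counting intervals and open triangles mark genes with 0 UMIs, drawn at the level that 3 UMIs would give. Among these 5 classes (cells like mural cells, keratinocytes, fibroblasts, endothelium and immune cells) the mural-like one is highest for each gene drawn, while skeletal muscle-like cells of skin, not drawn, have more *Tpm1* and *Tpm2*, and the keratinocyte-like class has *Acta2* and *Tagln* at higher levels in PG than in skin while *Myh11* stays under 0.2 CPM in both.

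Clusters were made within each library and named from marker genes. In each tissue a single cluster carried markers of smooth muscle and of pericytes, and it is called mural-like here. In skin it was cluster 33 with 26 cells, in which 8 of 10 smooth muscle markers and 5 of 10 pericyte markers were detected. In PG it was cluster 14 with 30 cells, with 7 and 9 of these markers. The summed smooth muscle markers stood at 4031 CPM in the skin cluster and 3507 CPM in the PG cluster, and the summed pericyte markers at 2204 and 4451 CPM. The skin cluster thus leaned to smooth muscle and the PG cluster to pericytes, and neither was split further. Genes of other classes were also found in them, with the 8 fibroblast genes at 7307 CPM and the 14 keratinocyte genes at 4318 CPM in skin, and at 3774 and 923 CPM in PG, and their part in the levels below was not tested.

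The actin and its binding partners were high in both clusters, which were made and named without the members. The members had been chosen with their levels known, so these values remain descriptions. In the 26 skin cells *Acta2* ranged from 0 to 118 UMIs per cell (median 17) and summed to 723 UMIs (10916 CPM), and in the 30 PG cells from 0 to 57 (median 5), with a sum of 278 UMIs (5702 CPM). *Tagln* summed to 665 UMIs in skin (median 16 per cell, highest 91) and to 303 UMIs in PG (median 3, highest 90). *Cnn1* gave 29 UMIs in 12 skin cells and 22 UMIs in 4 PG cells, of which 18 came from 1 cell. The PG sum of *Cnn1* therefore rests on a single cell.

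The motor genes followed the same cells. *Myh11* was seen in 24 of the 26 skin cells (median 7.5 UMIs, highest 34) and in 15 of the 30 PG cells (median 0.5, highest 60), with sums of 245 and 155 UMIs. In all, 96.8% of the *Myh11* UMIs of skin and 95.7% of those of PG lay in these clusters. *Mylk* gave 139 UMIs in 24 skin cells and 96 UMIs in 24 PG cells, and *Myl9* 178 UMIs in 25 skin cells and 228 UMIs in 27 PG cells. *Myl9* and *Mylk* were spread more widely than *Myh11*, with 53.0% and 43.6% of their skin UMIs and 59.5% and 56.1% of their PG UMIs in the mural-like cells.

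*Rgs5* set the clusters apart. It was present in 6 of the 26 skin cells (23.1%, exact 95% CI 8.97 to 43.7) with 53 UMIs, and in 21 of the 30 PG cells (70.0%, exact 95% CI 50.6 to 85.3) with 164 UMIs. The level was 800 CPM in skin and 3364 CPM in PG, a log2 difference of 2.07 (95% CI 1.62 to 2.55). *Myl9* was also higher in the PG cluster (log2 difference 0.80, 95% CI 0.51 to 1.09). *Acta2* (-0.94), *Tagln* (-0.69), *Tpm1* (-0.79) and *Tpm2* (-2.01) were lower there, while the intervals of *Myh11* (-0.22, 95% CI -0.52 to 0.08), *Mylk* (-0.09) and *Cnn1* (0.04) included 0. These ratios compare 26 with 30 cells and the make-up of the clusters differed as described, so a changed mix of cells and a changed level per cell cannot be told apart.

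Outside the mural-like cells, the endothelial-like cells carried the most *Rgs5* in skin. The 118 endothelial-like cells of skin held 152 of the 225 *Rgs5* UMIs (67.6%; 485 CPM), and the 64 of PG held 144 UMIs (1208 CPM). In PG, 73 of the 144 UMIs came from cluster 22 (19 cells), in which 8 of 10 pericyte markers and 8 of 8 endothelial markers were detected and 31.6% of the cells were doublet calls, and 53 came from cluster 21 (20 cells), with 7 pericyte markers and no doublet call. In skin, 101 of the 152 came from cluster 27 (25 cells), with 4 pericyte markers and no doublet call. *Rgs5* outside the mural-like clusters therefore lay largely in clusters with markers of both vessel cell types. *Acta2*, *Tagln*, *Myl9* and *Mylk* in endothelial-like cells ranged from 25.5 to 140.5 CPM in skin and from 117 to 184.5 CPM in PG.

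In fibroblast-like cells no *Myh11* UMI was found in either tissue (0 of 2609461 UMIs in skin, which allows up to 1.15 CPM, and 0 of 1212796 in PG, which allows up to 2.47 CPM). *Acta2* stood at 52.9 CPM in skin and 24.7 CPM in PG, and of the 138 skin UMIs 132 came from cluster 19, where 12 of 135 cells held them. That cluster was led by *Ndnf*, *Slc26a7* and *Crabp1* and also gave 65 *Tagln*, 60 *Mylk* and 5 *Cnn1* UMIs with 0 *Myh11* UMIs. Skeletal muscle-like cells were found in skin only, as 70 cells with 2827 *Tpm1* and 1733 *Tpm2* UMIs (13044 and 7996 CPM), in which *Tagln*, *Myh11*, *Myl9*, *Mylk*, *Cnn1* and *Rgs5* had 0 UMIs and *Acta2* 1. Of the 10235 *Tpm1* UMIs of skin, 2827 thus came from these 70 cells, so tropomyosin UMIs alone do not tell smooth from skeletal muscle here.

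In keratinocyte-like cells, *Tagln* and *Acta2* were the members furthest above the skin level in PG. In the 5901 keratinocyte-like cells of skin *Acta2* had 201 UMIs (11.0 CPM, 95% CI 9.54 to 12.6), and in the 3150 keratinocyte-like cells of PG 553 UMIs (54.3 CPM, 95% CI 49.8 to 59.0). *Tagln* had 263 UMIs (14.4 CPM, 95% CI 12.7 to 16.2) and 1408 UMIs (138 CPM, 95% CI 131 to 146). With finer clusters (resolution 2), some *Tagln*-bearing clusters of PG had no name. The PG levels were then 77.1 CPM for *Tagln* and 42.1 CPM for *Acta2*, still above those of skin but between the 2 free RNA levels of PG. The log2 differences of PG over skin were 2.30 for *Acta2* (95% CI 2.07 to 2.54) and 3.26 for *Tagln* (95% CI 3.07 to 3.46). *Tpm2* (1.77) and *Myl9* (1.74, 95% CI 1.28 to 2.22) were higher in PG as well, *Tpm1* was -0.05 (95% CI -0.11 to 0.02), and *Mylk* was lower (-1.99, 95% CI -3.38 to -0.85). *Myh11* had 3 UMIs in the skin cells and 1 in the PG cells. At the resolution used, 78.1% of all *Tagln* UMIs and 60.6% of all *Acta2* UMIs of PG lay in keratinocyte-like cells, against 95.7% of the *Myh11* UMIs in mural-like cells.

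The epithelial *Tagln* of PG was spread over several clusters and was highest in cluster 4, which had 333 cells and carried 10 keratinocyte markers, among them *Krt15*, *Trp63* and *Col17a1*. *Tagln* had 610 UMIs there (713 CPM, 95% CI 658 to 772) in 168 cells (50.5%; 37.2% after each cell was thinned to 1000 UMIs), and *Acta2* 144 UMIs in 72 cells. *Myh11*, *Mylk*, *Cnn1* and *Rgs5* had 0 UMIs of 855022 in this cluster, which allows up to 3.51 CPM of each. *Tagln* is among the genes that lead the cluster, beside *2610528A11Rik*, *Fcgbp* and *Serpine2*. Cluster 3 (355 cells) held 282 *Tagln* and 96 *Acta2* UMIs of 923395, and cluster 15 (78 cells) 121 and 45 of 268483. The sums were thus larger in cluster 3 and the levels higher in cluster 15. In skin the epithelial UMIs were concentrated in cluster 18, with 159 cells led by *Slc7a8*, *Gnmt* and *Dhrs9*, where *Tagln* had 210 UMIs in 56 cells (35.2%, thinned 19.5%), *Acta2* 121 UMIs in 37 cells and *Myl9* 38 UMIs in 24 cells. *Mylk* had 16 UMIs there, and *Myh11*, *Cnn1* and *Rgs5* had 0.

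**Figure D2:**
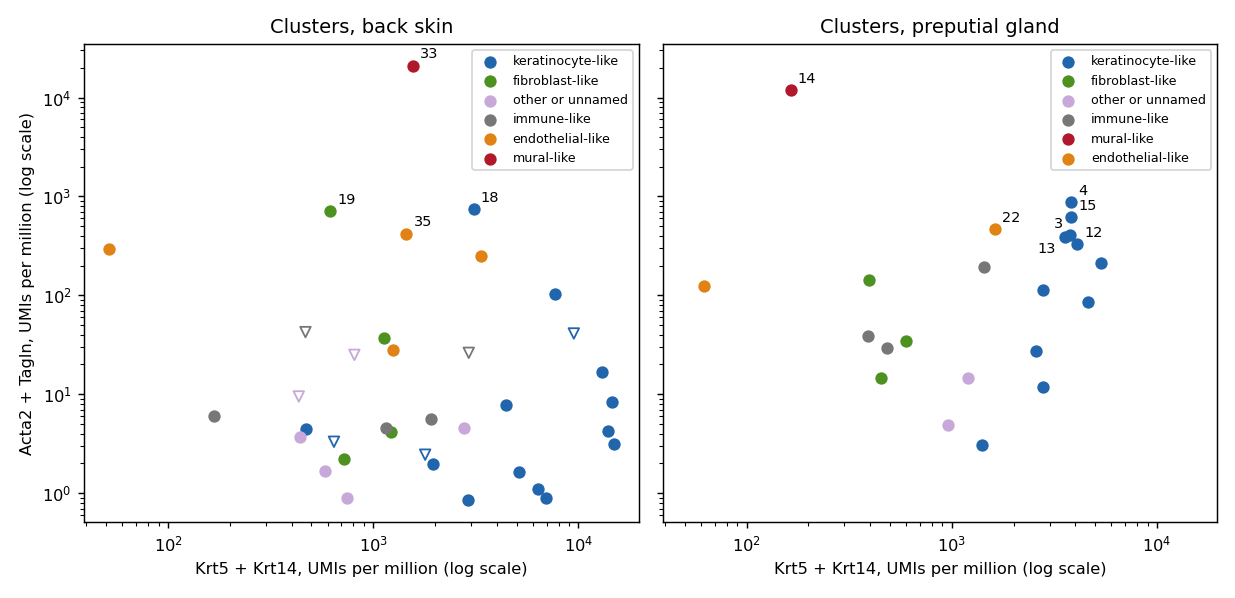
Each point is 1 cluster, with the summed level of *Krt5* and *Krt14* (x axis) against that of *Acta2* and *Tagln* (y axis), both in CPM on log scales, back skin on the left and PG on the right. Colours give the class, numbers name the clusters above 300 CPM of *Acta2* and *Tagln* and open triangles are clusters with 0 UMIs, drawn at the level of 3 UMIs. The mural-like clusters 33 and 14 stand at the top at lower keratin, and the keratinocyte-like clusters 4, 15, 3, 13 and 12 of PG and 18 of skin lie below them at higher keratin.

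Co-detection with keratins was then counted in single cells, at their full depth. UMIs of both *Krt5* and *Krt14* were found in 49.1% of all skin cells and 52.5% of all PG cells. Among cells with a *Tagln* UMI this share was 41.7% in skin (60 of 144, exact 95% CI 33.5 to 50.2) and 82.5% in PG (382 of 463, exact 95% CI 78.7 to 85.9). Among cells with an *Acta2* UMI it was 44.8% (56 of 125) and 74.6% (229 of 307). In PG the shares of the *Tagln* and *Acta2* cells lay above that of all cells, and in skin they did not. Among cells with a *Myh11* UMI the share was 16.7% in skin (5 of 30) and 0 in PG (0 of 20, which allows up to 15%), and for *Mylk* 28.7% (41 of 143) and 8.79% (8 of 91). *Myl9* gave 30.1% in skin and 62.7% in PG, *Rgs5* 18.4% and 15.7%, and *Tpm1* and *Tpm2* 59.5% and 70.2% in skin and 72.0% and 74.4% in PG. When the 2 keratins were summed, they made up at least 0.1% of the UMIs in 5 of the 30 *Myh11* cells of skin and 2 of the 20 of PG.

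Since free RNA gives UMIs in cells that do not express a gene, the shares were also compared with immune-like cells after thinning each cell to 1000 UMIs. Keratin-positive cells were defined by *Krt5* and *Krt14* summing to at least 0.5% of a cell's UMIs with at least 1 UMI of each, which held for 3208 skin cells (36.0%) and 537 PG cells (11.4%). In PG, 11.5% of them had a *Tagln* UMI (exact 95% CI 8.97 to 14.6; 17.3% unthinned; median depth 2572 UMIs), against 1.10% of the immune-like cells (1.47% unthinned; median depth 1931), and 7.26% had an *Acta2* UMI against 1.47%. In skin, 0.249% had a *Tagln* UMI (0.592% unthinned; median depth 2624 UMIs) against 0.595% of the immune-like cells (median depth 1827), and 0.374% had an *Acta2* UMI against 0 of 336, which allows a share of up to 0.893%. The *Tagln* share of the immune-like skin cells rests on 2 of 336 cells (exact 95% CI 0.072 to 2.13), under the 3-cell limit of 0.893%. The share of keratin-positive skin cells did not exceed it, and neither expression nor its absence is read from it. In PG the share of keratin-positive cells lay above that of the immune-like cells. The limit took in 52.4% of the keratinocyte-like cells of skin and 16.8% of those of PG. Over all keratinocyte-like cells the thinned *Tagln* share was 0.678% in skin and 8.19% in PG. The skin value therefore does not describe cluster 18. After thinning, *Myh11*, *Mylk* and *Cnn1* were found in 0 of the 537 keratin-positive PG cells, which allows a share of up to 0.559%. *Tpm2* was found in 47.7% of them and *Tpm1* in 37.4%, against 4.76% and 4.40% of the immune-like cells, and in skin in 14.4% and 20.4% against 6.85% and 5.36%.

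To find single cells with more than stray contractile transcripts, cells were called contractile-positive where *Acta2*, *Tagln*, *Myh11* and *Cnn1* summed to at least 0.2% of the UMIs, with at least 3 UMIs from at least 2 of the 4 genes. Skin had 48 such cells (0.539% of all cells, exact 95% CI 0.398 to 0.715) and PG 78 (1.66%, exact 95% CI 1.31 to 2.07). In skin 24 of them lay in the mural-like and 18 in keratinocyte-like clusters, and in PG 22 and 50. Keratin-positive were 2 of the 48 in skin (4.17%, exact 95% CI 0.509 to 14.3) and 14 of the 78 in PG (17.9%, exact 95% CI 10.2 to 28.3). In PG 26 of the 78 cells were within 1.5-fold of the keratin limit, and in skin none of the 48. The share depended on the limit in both tissues, as given in the last section. A lower limit of 0.1% keratin, chosen after the values were seen, was therefore used to split the contractile-positive cells further, with 32 cells under it in skin, 14 between 0.1 and 0.5% and 2 above, and 30, 34 and 14 in PG. This limit uses the sum of *Krt5* and *Krt14* and asks for no UMI of each. It lies below their summed share of free RNA (barcodes of 1 to 100 UMIs) in both tissues. There *Krt5* and *Krt14* stood at 914.1 and 1273 CPM in skin and at 255.5 and 884.6 CPM in PG. The median keratin share was 0.182% in the 14 skin cells and 0.342% in the 34 PG cells. In immune-like cells the median was 0 in both tissues. The part of free RNA in the keratin of these cells was not tested. Many cells were also near the contractile limit. Counted from 1.5-fold below it upward, 134 of 208 PG cells (64.4%) and 32 of 70 skin cells (45.7%) lay within 1.5-fold of it. In PG the median contractile share was 0.399% in the 14 cells, 0.298% in the 34 and 0.795% in the 30.

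**Figure D3:**
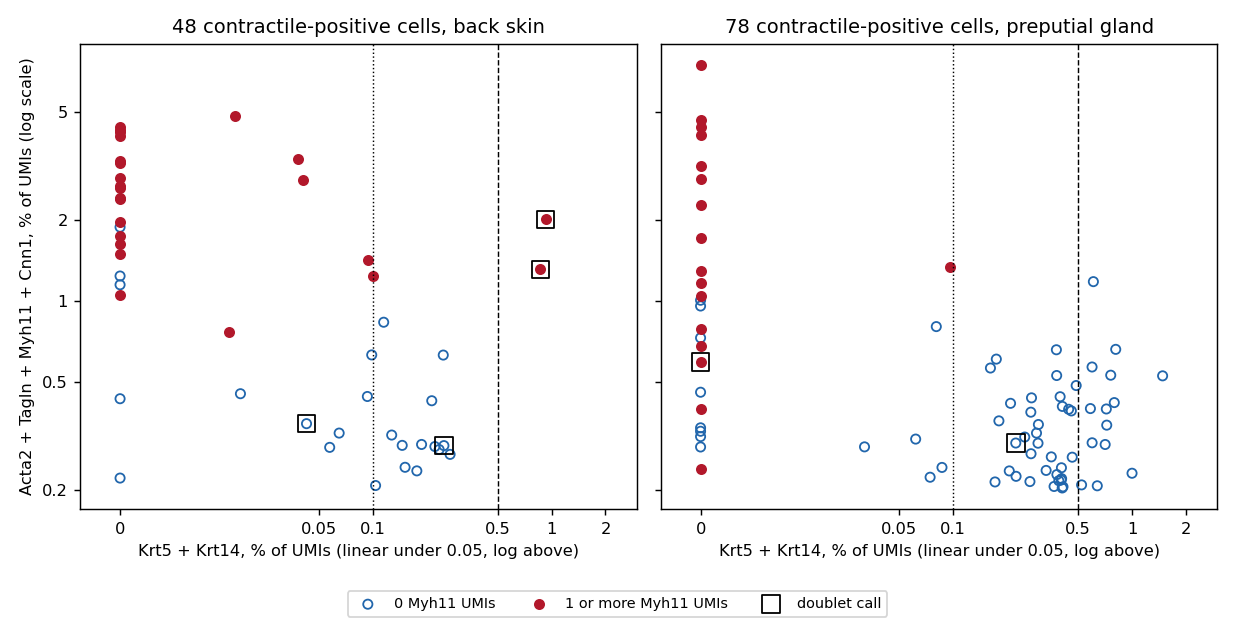
Each point is 1 contractile-positive cell, with the share of its UMIs from *Krt5* and *Krt14* on the x axis (linear under 0.05%, log above) and from *Acta2*, *Tagln*, *Myh11* and *Cnn1* on the y axis (log scale), 48 cells of back skin on the left and 78 of PG on the right. Filled red points have at least 1 *Myh11* UMI, open blue points have none, squares mark doublet calls, and the dotted and dashed lines mark 0.1% and 0.5% keratin. In PG no cell to the right of the dotted line has *Myh11*, and in skin both cells to the right of the dashed line have it and are doublet calls.

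Both keratin-positive contractile cells of skin carried *Acta2*, *Tagln*, *Myh11*, *Myl9*, *Mylk* and *Cnn1* together. The first had 5187 UMIs with 54 of *Acta2*, 39 of *Tagln*, 10 of *Myh11*, 14 of *Myl9*, 3 of *Mylk* and 1 of *Cnn1*, beside 5 of *Krt5* and 43 of *Krt14*. The second had 5425 UMIs with 42 of *Acta2*, 10 of *Tagln*, 18 of *Myh11*, 8 of *Myl9*, 23 of *Mylk* and 1 of *Cnn1*, beside 22 of *Krt5* and 25 of *Krt14*. Both lay in mural-like cluster 33, had 0 *Rgs5* UMIs and were doublet calls, and their median depth of 5306 UMIs was above the 2794 UMIs of the other 46 contractile-positive cells of skin. *Krt17* and *Gjb2*, which the other contractile-positive cells of skin carried with 276 and 124 UMIs, had 0 UMIs in them, and *Ly6d* had 33 UMIs in them against 1 in the other 46. Without the doublet calls, no keratin-positive contractile cell was left in skin.

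The 14 keratin-positive contractile cells of PG had another make-up. *Tagln* ranged from 1 to 41 UMIs per cell (median 5.5) and *Acta2* from 0 to 27 (median 3), with *Krt5* from 3 to 18 (median 7) and *Krt14* from 3 to 23 (median 10). *Myh11*, *Mylk* and *Rgs5* had 0 UMIs in all 14 cells, *Cnn1* had 1 UMI and *Myl9* was present in 3 cells. All 14 lay in keratinocyte-like clusters and none was a doublet call. Their median depth was 2240 UMIs against 1980 UMIs in the other 64, a log2 ratio of 0.18 that was 0.59 with a keratin limit of 0.2% and 0.60 with 0.1%. The 34 cells between 0.1 and 0.5% keratin had a like make-up, with *Tagln* from 1 to 23 UMIs (median 4) and *Acta2* from 1 to 9 (median 2). They had no *Myh11* or *Cnn1*, and their only *Rgs5* and *Mylk* UMIs lay in the same cell, the 1 mural-like cell among them. In contrast, of the 30 cells under 0.1% keratin 17 had *Myh11* (56.7%, exact 95% CI 37.4 to 74.5), 20 *Mylk* (66.7%), 15 *Rgs5* and 4 *Cnn1*. The step in *Myh11* detection between the 48 cells above 0.1% keratin (0 cells) and the 30 below it is a comparison of cells within 1 library.

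Skin showed a similar division below its 2 keratin-positive cells. Of the 14 contractile-positive cells between 0.1 and 0.5% keratin, 13 were keratinocyte-like, 1 was mural-like and 1 was a doublet call. *Tagln* ranged from 1 to 25 UMIs in them (median 6) and *Acta2* from 1 to 17 (median 3.5). The mural-like cell was the only 1 with *Myh11*, while 2 cells had *Mylk* and none had *Cnn1* or *Rgs5*. Of the 32 cells under 0.1%, 21 were mural-like and 5 keratinocyte-like, and 21 had *Myh11* (65.6%), 24 had *Mylk* and 12 had *Cnn1*. In the 18 contractile-positive cells of keratinocyte-like clusters *Myh11* had 0 UMIs beside 239 of *Acta2* and *Tagln*. Cells with *Acta2* and *Tagln* UMIs together numbered 68 in skin and 147 in PG. Of these, 25 in skin (36.8%) and 110 in PG (74.8%, exact 95% CI 67.0 to 81.6) had both keratins, and 25 and 17 had *Myh11*. All 5 transcripts together were found in 4 of 68 cells in skin and in 0 of 147 in PG, which allows a share of up to 2.04%.

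The ratio of the other members to *Acta2* and *Tagln* was compared between groups of cells and free RNA. In mural-like cells there were 17.6 *Myh11* UMIs per 100 *Acta2* and *Tagln* UMIs in skin (95% CI 15.3 to 20.2) and 26.7 in PG (95% CI 22.2 to 31.9). In keratinocyte-like cells the ratio was 0.647 in skin (3 against 464 UMIs) and 0.0510 in PG (1 against 1961 UMIs, 95% CI 0.00129 to 0.285). Barcodes of 1 to 100 UMIs, which hold free RNA, stood at 13.8 in skin (95% CI 9.25 to 19.8) and 8.56 in PG (95% CI 5.27 to 13.2). In barcodes of 1 to 20 UMIs the ratios were 9.09 in skin (4 against 44 UMIs) and 4.55 in PG (3 against 66 UMIs, 95% CI 0.914 to 13.9). Free RNA thus carried *Myh11* beside *Acta2* and *Tagln* at a ratio above that of the PG keratinocyte-like cells in both ranges. The 48 contractile-positive PG cells with at least 0.1% keratin had 0 *Myh11* UMIs beside 500 *Acta2* and *Tagln* UMIs, which allows a ratio of up to 0.600.

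*Mylk* followed *Myh11*, with 139 UMIs against 1388 in mural-like cells of skin and 16.5 per 100 in those of PG, 0.357 in keratinocyte-like cells of PG and 9.73 in its free RNA (15.2 in barcodes of 1 to 20 UMIs), but 10.8 in keratinocyte-like cells of skin (50 against 464 UMIs). *Rgs5* stood at 3.82 and 28.2 in mural-like cells and at 16.3 and 40.1 in free RNA (6.82 and 18.2 in barcodes of 1 to 20 UMIs), and in PG its level over all cells, 22.2 CPM, was below the 40.0 CPM of free RNA. *Myl9* differed less, with 12.8 and 39.2 in mural-like cells and 13.2 and 5.81 in keratinocyte-like cells of skin and PG. In the free RNA of PG, 42 *Myl9* UMIs stood beside 93 of *Acta2* and 164 of *Tagln* in barcodes of 1 to 100 UMIs. In those of 1 to 20 UMIs *Myl9* was 10.1 CPM beside 45.3 CPM of *Acta2* and 120.7 CPM of *Tagln*, a lower ratio. The place of *Myl9* against free RNA thus depends on the range. The balance within the pair also differed. *Tagln* made up 47.9% of the *Acta2* and *Tagln* UMIs of mural-like cells in skin and 52.2% in PG (95% CI 48.0 to 56.3), 71.8% in keratinocyte-like cells of PG (95% CI 69.8 to 73.8) and 56.7% in those of skin. In the free RNA of PG it was 63.8% (95% CI 57.6 to 69.7) in barcodes of 1 to 100 UMIs and 72.7% (95% CI 60.4 to 83.0) in those of 1 to 20.

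**Figure D4:**
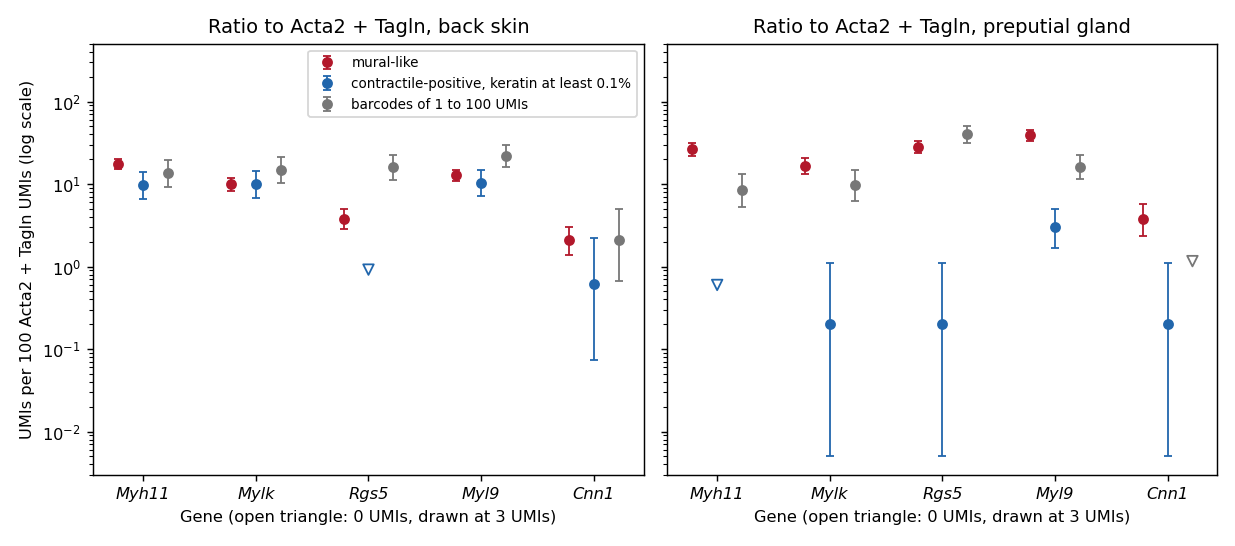
UMIs of *Myh11*, *Mylk*, *Rgs5*, *Myl9* and *Cnn1* per 100 UMIs of *Acta2* and *Tagln* (y axis, log scale) in mural-like cells, in contractile-positive cells with at least 0.1% keratin and in barcodes of 1 to 100 UMIs, back skin on the left and PG on the right. Bars are exact 95% counting intervals and open triangles mark 0 UMIs, drawn at 3 UMIs. In PG the keratin-bearing cells lie below the other groups for *Myh11*, *Mylk*, *Rgs5* and *Myl9*, while in skin, where 3 of the 16 such cells are mural-like, they lie near them for *Myh11*, *Mylk* and *Myl9*.

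Measures of mixed droplets were set beside these cells. In skin 3 of the 16 contractile-positive cells with at least 0.1% keratin were doublet calls (18.8%; median depth 3348 UMIs), against 1 of 32 below 0.1% (median 2278), and in PG 1 of 48 (2.08%; median 2338) against 1 of 30 (median 1618). The caller marks a fixed share, which was 7.12% for skin and 3.77% for PG, so the number of calls is no measurement. For comparison, keratins were also counted beside genes of other stromal classes. The sets are not alike, since 18 of the 48 contractile-positive cells of skin and 50 of the 78 of PG were keratinocyte-like. A rate of mixed droplets was not measured. With the same limits for fibroblast, endothelial and immune genes, 4.95%, 2.04% and 3.08% of the cells so called were keratin-positive in skin, and 0.725%, 0 of 43 and 0 of 221 in PG. The PG share among contractile-positive cells, 17.9%, lay above those of PG, while the skin share, 4.17%, lay among those of skin. In PG 48 of the 78 cells had at least 0.1% keratin, against 11.7%, 4.65% and 6.33% of the fibroblast, endothelial and immune calls. In skin it was 16 of the 48 cells, against 11.3%, 4.08% and 5.77%, so the share at this limit lay above those of the other sets in both tissues. The cause was not tested. At least 0.1% keratin was also found in 3 of the 26 mural-like cells of skin and 1 of the 30 of PG. None of the 48 PG cells passed the fibroblast, endothelial or immune limits, which allows a share of up to 6.25% for each.

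In PG, the contractile-positive cells with at least 0.1% keratin carried basal epithelial genes, and those under it carried genes of fibroblasts, vessels and smooth muscle. The groups were split on *Krt5* and *Krt14*, and 46 of the 48 cells above the limit were keratinocyte-like and 21 of the 30 below mural-like. Differences in epithelial and stromal genes are therefore bound to follow the split and are descriptions. Genes were compared where one of the groups reached 200 CPM and 20 UMIs, and of these 687 genes 18.5% were at least 2-fold higher in the keratin-bearing cells and 19.5% lower. A gene that reaches the limits in 1 group only is bound to be higher there, so the sums over whole lists, which use no limit, stand beside the counts. Of 14 basal epithelial genes beyond *Krt5* and *Krt14*, 12 passed these limits and 11 were higher, among them *Krt17* (646 against 37 UMIs), *Dsp*, the desmosomal plaque protein (151 against 13), *Krt15* (193 against 15) and *Col17a1*, a collagen of hemidesmosomes (55 against 1). The list summed to 2951 against 195 UMIs (log2 difference 2.75, 95% CI 2.54 to 2.96), with a median of 2.54 against 0.23 over all genes compared. The 8 fibroblast genes summed to 31 against 524 UMIs, and the 8 endothelial genes to 0 against 36 UMIs. Of 10 smooth muscle genes beyond the members, 8 had 0 UMIs in the keratin-bearing cells, among them *Des*, the intermediate filament of muscle (0 against 64), and *Lmod1*, an actin nucleator of smooth muscle (0 against 19), and the list summed to 12 against 171 UMIs.

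Of 35 genes of the wider contractile apparatus beyond the members 15 passed, none was at least 2-fold higher and 6 were lower, with a median log2 difference of -0.57 against 0.23 over all genes compared. The actin cross-linker *Flna* (35 against 90 UMIs, -2.53), the actin-binding *Cald1* (27 against 74, -2.63), *Actn1* (26 against 38, -1.72) and the essential light chain *Myl6* (278 against 249, -1.01) were among the lower ones. The cytoskeletal actins *Actb* (0.16) and *Actg1* (0.78) and non-muscle myosin *Myh9* (-0.08) were not 2-fold lower. Of 8 genes known from myoepithelial cells beyond the members, *Krt17*, *Trp63* (40 against 3 UMIs) and *Jag2* (18 against 0) had more UMIs in the keratin-bearing cells and *Cav1* (5 against 26) fewer, *Cdh3* had 8 against 2 and the oxytocin receptor *Oxtr* had 1 against 0. *Krt17*, *Trp63* and *Itgb4* of that list are also basal epithelial genes. Of 10 pericyte genes, *Ndufa4l2* had 155 against 52 UMIs, a log2 difference of CPM of 0.40 (95% CI -0.06 to 0.89), while *Pdgfrb* (0 against 24) and *Notch3* (2 against 24) had most of their UMIs in the cells under 0.1% keratin.

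*Acta2*, *Tagln*, *Myh11* and *Cnn1* had been used to call these cells. For the members not used in the call, the log2 differences were -7.65 for *Mylk* (1 against 89 UMIs), -8.13 for *Rgs5* (1 against 124), -5.07 for *Myl9* (15 against 223), -1.22 for *Tpm1* (94 against 97) and -0.74 for *Tpm2* (135 against 100). The keratin-bearing cells, with 134376 UMIs in all against 59615, thus held few UMIs of the light chain, its kinase and *Rgs5*. The tropomyosins were lower in them as well, by smaller differences.

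In skin the same split gave 9.72% of 710 genes higher and 24.2% lower. Of the basal epithelial genes 8 passed and 6 were higher (1056 against 486 UMIs in sum), the 8 fibroblast genes summed to 24 against 633 UMIs and the 10 smooth muscle genes to 60 against 254. *Des* had 6 against 20 UMIs and *Lmod1* 8 against 47, so smooth muscle genes were not absent from the keratin-bearing cells of skin, which include the doublet calls. Of the contractile apparatus 21 genes passed, none was higher and 9 were lower, with a median log2 difference of -0.84 against -0.10 over all genes compared. Of the members outside the call, *Mylk* had 33 against 144 UMIs (-1.40), *Myl9* 34 against 174 (-1.63), *Rgs5* 0 against 34, *Tpm1* 123 against 346 (-0.77) and *Tpm2* 95 against 497 (-1.66). Of the 16 keratin-bearing cells 3 were mural-like. These held 3, 23 and 6 of the 33 *Mylk* UMIs and 14, 8 and 3 of the 34 *Myl9* UMIs, so both sums rest mostly on them.

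The keratin-bearing contractile-positive cells were next compared with contractile-negative cells of at least 0.1% keratin. In PG the 48 cells were set against 3168 such cells, of which 2830 lay in keratinocyte-like clusters, 214 in sebocyte-like, 69 in fibroblast-like, 48 in immune-like and 7 in endothelial-like clusters, and 4.93% of 670 genes were at least 2-fold higher in them and 6.42% lower. Of the basal epithelial genes 12 passed, 2 were higher and none was lower, and of the contractile apparatus 12 passed, 2 were higher and none was lower, with a median log2 difference of 0.91 against -0.01 over all genes compared. Those higher were *Flna* (1.19, 95% CI 0.66 to 1.67) and *Cald1* (1.38, 95% CI 0.76 to 1.93). The 10 sebocyte genes were lower in sum (log2 difference -2.10, 95% CI -2.37 to -1.83), with *Scd1*, a fatty acid desaturase, at 11 against 7743 UMIs (-3.11), and the part of the 214 sebocyte-like cells in this was not tested. *Postn*, a matrix protein, had 39 UMIs in these 48 cells and 137 in the 3168 (log2 difference 4.54, 95% CI 3.99 to 5.06). *2610528A11Rik* (2.46), *Timp3*, an inhibitor of matrix proteases (2.41), *Msn*, which links actin to the membrane (2.24), and *S100a6* (1.98) were higher as well. Of the other members, *Myl9* gave 3.57 (15 against 103 UMIs), *Tpm1* 1.42 and *Tpm2* 1.23, and *Mylk*, *Rgs5* and *Cnn1* had 1 UMI each in the 48 cells.

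In skin, where 16 cells were set against 4924, of which 4594 were keratinocyte-like, 13.4% of 613 genes were higher and 16.6% lower. Of the 16 cells 13 were keratinocyte-like and 3 mural-like, and 3 were doublet calls. The 2 keratin-positive cells among them, both mural-like doublet calls, held 25 of the 67 *Cald1* and 62 of the 267 *Myl6* UMIs. The part of the mural-like cells in the values below was not tested. Of the contractile apparatus 10 passed and 4 were higher, among them *Cald1* (4.34, 95% CI 3.96 to 4.70), *Flna* (2.74) and *Myl6*, the essential light chain (2.27), and the median was 0.78 against -0.01 over all genes compared. Of the basal epithelial genes 12 passed and 4 were lower. *Slc7a8*, an amino acid transporter that also led cluster 18, had 37 UMIs against 303 (5.08), *Sparcl1* 21 against 31 (7.56) and *Col4a1*, of basement membranes, 23 against 277 (4.53), and *Krtdap* (0 against 13511), *Krt10* and *Sbsn*, genes of keratinocyte differentiation, were lower.

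When only the 14 keratin-positive contractile cells of PG were compared with the 523 keratin-positive cells that were contractile-negative, *Postn* (20 against 27 UMIs, 4.92), *S100a8* (3.34), *Nfkbia*, an inhibitor of NF-kappa B (3.24), and *Gjb2*, a gap junction protein (2.66), were highest, and *Krt79* (-5.53), *Defb6* (-3.92) and *Fabp5*, a fatty acid carrier (-2.26), were among the lowest. Against the other 64 contractile-positive cells they had more *Cst6* (461 against 42 UMIs, 5.46), *Clu* (3.00) and *Sox9* (1.62), and fewer *Igfbp7* (4 against 337 UMIs, -4.40), *Vim* (-3.48) and *Sparcl1* UMIs (0 against 211). With 14 cells in the group, single cells can carry such sums.

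Across clusters, the genes most like *Acta2* were named by the correlation of log2(CPM + 10), among genes with at least 100 UMIs. Over the 36 clusters of skin these were *Gm13889* (Pearson's r 0.81), *Pck2* (0.77), *Myl6* (0.76), *Elk1* (0.76) and *Ppp1r14a* (0.75). Over the 23 clusters of PG they were *Col18a1* (0.80), *Cspg4* (0.77), *Dbndd2* (0.76), *Slc2a4* (0.76) and *Rgs4* (0.73). Among the members, *Myl9* (0.95), *Tagln* (0.89) and *Cnn1* (0.83) followed *Acta2* most closely in skin, and *Tagln* (0.84), *Tpm1* (0.77) and *Myh11* (0.73) in PG, where *Mylk* (0.44) and *Rgs5* (0.49) followed it least. These values are descriptions, since the clusters of a tissue share 1 library, differ in depth and were made from the same cells.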

How the data were processed

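Counts of UMIs per gene and barcode were deposited by the authors as 1 unfiltered matrix per tissue, made with Cell Ranger (version 4 in the file header) and, per the submitters' processing notes, mm10. They were not normalized, and droplet 3′ counting reads levels near the end of a transcript only. The barcode lists differ in length between the libraries (6794880 in skin, 737280 in PG). Barcodes were taken as cells from 500 genes and 1000 UMIs upward, with no more than 10% of UMIs from mitochondrial genes. Members, gene lists and calls were chosen with earlier results of these data known, and the lower keratin limit of 0.1% and the naming rule for clusters after the values were seen.

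Within each library, 2000 variable genes, 30 components and 15 neighbours gave Leiden clusters at resolution 1. The members, *Krt5*, *Krt14* and mitochondrial genes were left out of the variable genes. A cluster took the class with the largest share of its markers found in at least 10% of its cells at 3-fold or more over the other cells. At least 3 such markers were needed. It stayed unnamed where another class came close or led its top genes, and was named for both where smooth muscle and pericytes came first. Unnamed clusters with no class or keratinocytes first were set against the non-epithelial clusters for keratinocyte markers. Larger endothelial-like clusters were clustered again. Free RNA was read from barcodes of 1 to 100 UMIs, with 1 to 20 as an alternative. Doublets were scored against simulated pairs, called at 0.8% per 1000 cells and kept. Intervals are exact (Poisson, Clopper-Pearson or binomial), at 95%, with a floor of 3 counts. A fold against 0 UMIs was set at this floor. Named genes were the members, the fixed lists with up to 5 genes by UMIs, the 8 highest and 8 lowest ratios between cells positive for both calls and cells positive for one, and the 5 genes most like *Acta2*. The same choice of 8 in the comparisons at 0.1% keratin was added later. The scripts were tested on simulated data. Python 3.11.15, numpy 2.4.6, scipy 1.17.1, pandas 2.3.3, scikit-learn 1.9.0, igraph 0.11.9, leidenalg 0.10.2 and matplotlib 3.10.9 were used.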

Additional observations from a re-analysis of the deposited data

Results flagged for a closer look

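Barcodes with more than 10% mitochondrial UMIs were not used above. Among the 662 such barcodes of PG that passed the limits on genes and UMIs, 14 were contractile-positive (2.11%), of which 7 had a *Myh11* UMI, 6 had at least 0.1% keratin and none was keratin-positive. *Acta2* stood at 89.0 CPM, *Tagln* at 109.9 CPM and *Myh11* at 16.9 CPM in them. Of the 232 such barcodes of skin, none was contractile-positive. This signal was singled out because it lies in data outside the main measurement.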

How the results depend on the processing

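The share of contractile-positive cells that were keratin-positive depended on the keratin limit. In skin (4.17%) it was 14.6% at 0.2%, 22.9% at 0.1% (added after seeing the data), 0 at 1%, 0 without doublet calls and 28.2% when all 9 members were summed. In PG (17.9%) it was 52.6% at 0.2%, 56.4% at 0.1% (added), 1.28% at 1% and 28.5% with all 9 members. These shares ask for a UMI of each keratin. The split at 0.1% used above does not, and it gave 16 of 48 cells in skin and 48 of 78 in PG. The log2 ratio of *Acta2*, *Tagln*, *Myh11* and *Cnn1* together, PG over skin, was 1.10, and 0.72 with cells from 1000 genes and 2000 UMIs upward, 1.19 at a mitochondrial limit of 5% and 0.23 with all 9 members. The log2 ratio of median UMIs of keratin-positive over other contractile-positive cells of skin was 0.93, and 0.61 with those cells, 0.86 at 5% mitochondrial UMIs, 0.71 at 0.2% keratin, 0.55 at 0.1% keratin (added), 1.08 and 1.22 at contractile limits of 0.1% and 0.5%, and 0.059 with all 9 members. It had no value at 1% keratin or without doublet calls, where no such cell was left. In PG it was 0.18, with 0.59 at 0.2%, 0.60 at 0.1% keratin (added) and 0.81 at a contractile limit of 0.5%, and reversed to -0.15 at 1% keratin, where 1 cell was left. Of 18 free RNA levels, 13 moved by more than their interval in barcodes of 1 to 20 UMIs. At resolution 2, the keratinocyte-like levels of PG were 42.1 CPM for *Acta2* and 77.1 CPM for *Tagln*, as clusters that held such cells were then unnamed. The cause of the other shifts was not tested. No paired analysis was possible because each tissue has 1 library.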
